A study of Mus musculus with 10 samples.

Results

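The genes described here encode the secreted and membrane proteins at the head of the Wnt pathway, together with a small set of genes that dampen it. They were taken by symbol from the deposited table, as the rows named Wnt, Fzd, Dkk or Rspo with a number, Sfrp1, Sfrp3, Sfrp4 or Sfrp5, and Frzb, Wif1, Axin2, Notum, Znrf3, Rnf43, Lrp5 and Lrp6. The rule found 48 of the 18994 genes in the table. It reads symbols and no measured value, though the genes were chosen with earlier results of these data known. They comprise 19 Wnt ligands, 12 receptors and co-receptors, 4 R-spondins, 4 feedback genes and 9 secreted antagonists. A filter on low counts kept 40 of the 48 for testing, and the other 8 are described by their counts.

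All mice were C57BL/6, 6 to 8 weeks of age, and had the cheek shaved 3 days before the experiment, and the tissue was cheek skin. Vehicle mice (n = 5) received 5 µL of vehicle into the skin of the right cheek, and MMP9 mice (n = 5) received 1 µg of MMP9, a secreted matrix-degrading gelatinase, in the same volume. The tissue was taken 4 hours later from both groups, and each library is 1 numbered mouse. The sources used here do not give the sex of the mice or the composition of the vehicle. Skin markers were abundant, with mean levels of 2544 TPM for the keratinocyte gene Krt14 and 2280 TPM for the fibroblast gene Dcn. TPM are transcripts scaled by length and library size. Muscle was in the samples too, with the actin gene Acta1 at 7980 TPM.

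Wnt proteins are lipid-modified ligands that bind Frizzled receptors on nearby cells. In the canonical branch, a Wnt also engages the co-receptors Lrp5 or Lrp6, which stops the destruction of beta-catenin and lets it switch on target genes with the TCF and LEF factors. R-spondins strengthen the signal by removing the ubiquitin ligases Znrf3 and Rnf43, which otherwise clear Frizzled from the membrane, while Dkk proteins, secreted Frizzled-related proteins and Wif1 hold the signal back outside the cell. In skin the pathway is known for the formation of hair follicles and for the start of each hair growth phase, with ligands from the epidermis and modulators from the dermis.

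Each library held 17121541 to 19443099 estimated counts. The hair content of the samples was uneven: 16 of the 17 listed shaft and inner root sheath genes were in the table, and they summed to 24.2 to 8131 CPM (counts scaled to library size) in vehicle mice and 28.8 to 2636 CPM in MMP9 mice, lowest in vehicle mouse 2 and MMP9 mouse 1. All 16 had negative log2 fold changes, MMP9 over vehicle, with a median of -1.29, and 0 was called. MMP9 mouse 4 stood apart in how counts followed transcript length. Relative to the vehicle mean, the median gene of the shortest quartile was 0.50 higher there on the log2 scale and the median gene of the longest quartile lay at -0.36, against -0.09 to 0.09 in the other 4 MMP9 mice. Its ribosomal protein transcripts made up 12.6% of counts, against 6.36% to 7.21% elsewhere. Its median TPM over all genes was 5.30, against 8.24 to 9.15 in the other libraries. For several named genes, values without this library are given beside the result.

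Of the promoters, 30 of the 48 genes had an entry in a RefSeq table of build GRCm38.p6, an earlier build than the GRCm39 named in the submitters' processing notes. Rspo3, which had the smallest p of these genes, had no entry. The 250 bases before the transcript start are shown for 3 genes. They are Axin2, the usual transcript readout of canonical signalling, Wnt5b, the ligand with the smallest p, and Wnt11, plotted against hair matrix markers. The Wnt11 relation did not pass adjustment. These windows lie at chr11:108920099-108920348 on the plus strand (Axin2), chr7:98834862-98835111 on the plus strand (the more upstream of 2 listed Wnt11 starts) and chr6:119449387-119449636 on the minus strand (the innermost of 3 listed Wnt5b starts). They overlap no exon in the GENCODE annotation of the same build. For Wnt11 and Wnt5b the start shown is the one with the core TCF/LEF motif CTTTGAT, or its reverse complement, in its window. Capitals mark this motif, and the windows of the other Wnt11 start and the other 2 Wnt5b starts hold neither motif searched.
Axin2: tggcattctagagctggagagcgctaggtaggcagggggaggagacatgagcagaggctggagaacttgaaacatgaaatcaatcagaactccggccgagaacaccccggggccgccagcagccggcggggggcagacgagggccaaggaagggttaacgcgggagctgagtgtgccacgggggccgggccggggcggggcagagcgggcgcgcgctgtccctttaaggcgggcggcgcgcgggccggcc
Wnt11: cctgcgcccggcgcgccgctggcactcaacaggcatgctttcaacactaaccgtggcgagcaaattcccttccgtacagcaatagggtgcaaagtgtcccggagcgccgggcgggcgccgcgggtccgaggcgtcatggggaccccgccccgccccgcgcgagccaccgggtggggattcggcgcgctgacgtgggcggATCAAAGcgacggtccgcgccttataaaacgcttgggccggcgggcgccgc
Wnt5b: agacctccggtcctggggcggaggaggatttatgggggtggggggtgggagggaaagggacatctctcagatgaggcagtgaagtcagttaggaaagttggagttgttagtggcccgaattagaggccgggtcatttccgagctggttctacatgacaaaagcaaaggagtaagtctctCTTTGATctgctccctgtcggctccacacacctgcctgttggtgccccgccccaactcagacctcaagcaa
Both strands were searched for CTTTGAT and CTTTGAA. Of the 34 windows that belong to these genes, 2 held CTTTGAT, where 3.21% of the 32851 windows in the table did. These 2, of Wnt11 and Wnt5b, are both printed above, so the windows printed do not represent the 34. A further window, of Dkk1, held CTTTGAA, a motif in 4.46% of all windows. The Wnt11 motif begins 51 bases before the start and the Wnt5b motif 71 bases before it, and neither motif is in the Axin2 window. Which start the counted reads came from was not measured.

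Among the ligands, 3 genes led at nearly the same level. Levels between genes are compared here as deposited TPM, which is scaled by transcript length, with the SD over the 10 libraries. Wnt4 averaged 27.6 ± 6.91 TPM, Wnt10a 24.8 ± 6.03 and Wnt7b 24.4 ± 5.58 TPM. The means of these 3 ligands, all known from epidermis and hair follicle, lay closer together than their SD. That SD is not the error of a difference within libraries, and Wnt4 was above Wnt10a in 9 of 10 libraries. Wnt3 followed at 13.5 ± 3.37 TPM and was below Wnt7b in 10 of 10 libraries. Wnt11 averaged 11.7 TPM, Wnt16 8.25, Wnt5a 6.69, Wnt6 4.88, Wnt9a 3.86, Wnt5b 3.38, Wnt10b 2.58, Wnt3a 2.58, Wnt2b 1.74 and Wnt2 1.08 TPM. Wnt10b, known from follicle growth, and Wnt3a were indistinguishable in level, each being the higher in some libraries. All ligands together summed to 85.0 to 168 TPM per library, of which Wnt4 and Wnt10a made up 32.2% to 45.5%.

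The other 5 ligands were barely present. Wnt9b had 4 to 9 counts per library and Wnt7a 1 to 12. Wnt8a, Wnt1 and Wnt8b had 0 to 3 counts in each library and totalled 13, 11 and 5 counts over the 10 libraries, below the level that could be tested.

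**Figure D1:**
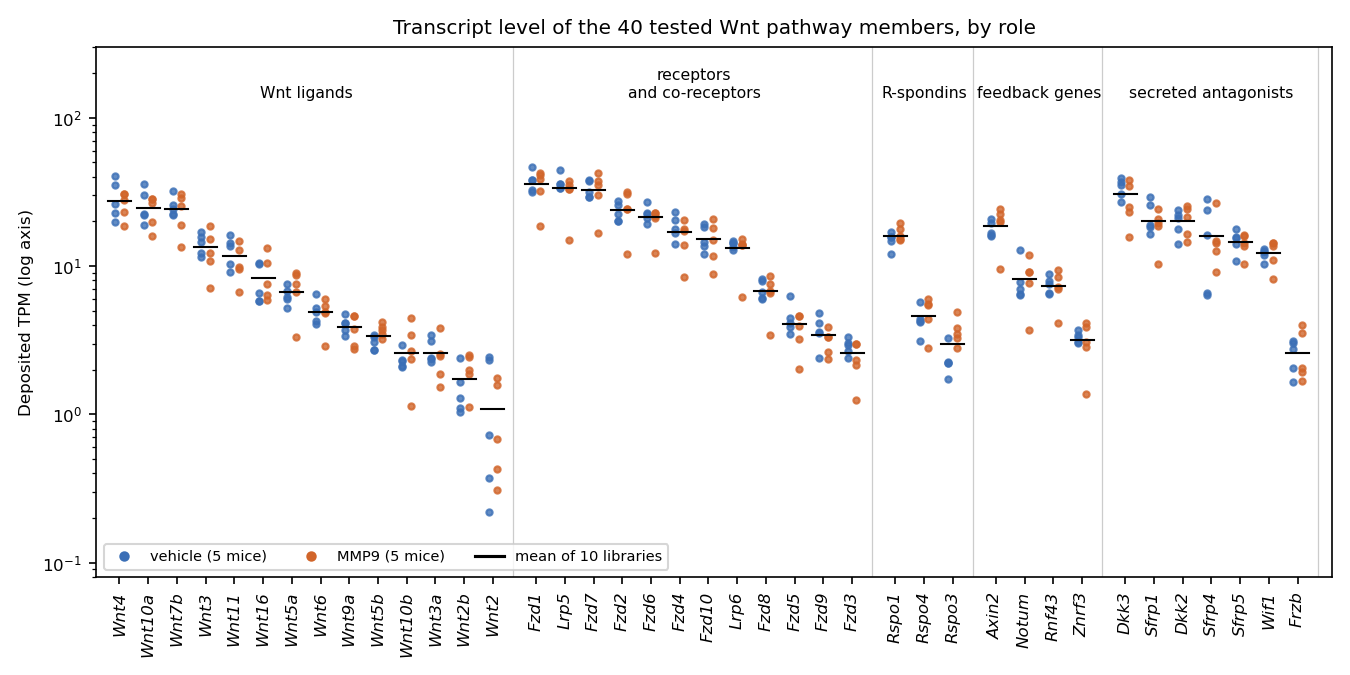
Deposited TPM (log axis) of the 40 tested genes, with 1 point per mouse, blue for vehicle and orange for MMP9, and a black bar for the mean of 10 libraries. Wnt4, Wnt10a and Wnt7b lead the ligands, Fzd1, Lrp5 and Fzd7 the receptors, and the lowest orange point of most genes is MMP9 mouse 4.

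Receptors were broadly expressed, with Fzd1 at 35.9 ± 7.67 TPM, the co-receptor Lrp5 at 33.6 ± 7.35 and Fzd7 at 32.7 ± 7.16 TPM. Their means lay closer together than their SD, and Fzd1 was above Lrp5 in 7 of 10 libraries. Fzd7 exceeded Fzd2, at 23.9 TPM, in 10 of 10 libraries. Fzd6 averaged 21.4 TPM, Fzd4 17.0, Fzd10 15.2, Lrp6 13.3, Fzd8 6.77, Fzd5 4.05, Fzd9 3.40 and Fzd3 2.60 TPM. Between the co-receptors, Lrp5 thus lay above Lrp6 in mean level. Every Frizzled gene of the rule passed the filter.

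Rspo1 was the main R-spondin, at 15.9 ± 2.02 TPM, above Rspo4 at 4.59 TPM in 10 of 10 libraries, with Rspo3 at 2.99 TPM and Rspo2 at 0 to 9 counts per library. Among the feedback genes, Axin2, a scaffold of the beta-catenin destruction complex and itself a target of the pathway, averaged 18.6 ± 4.16 TPM. Notum, an enzyme that strips the lipid from Wnt proteins, averaged 8.18 TPM and the ligase gene Rnf43 7.34 TPM, each higher than the other in 5 of 10 libraries, and Znrf3 averaged 3.19 TPM.

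Dkk3 led the antagonists at 30.6 ± 7.60 TPM. It is a divergent Dkk protein whose action on Wnt signalling is less settled than that of its relatives. Sfrp1 at 20.2 ± 5.29 TPM, Dkk2 at 20.1, Sfrp4 at 15.9 and Sfrp5 at 14.4 TPM followed, each within the spread of its neighbour. Wif1, which binds Wnt proteins directly, averaged 12.2 TPM and Frzb 2.58 TPM. Dkk1, the classic blocker of the Lrp co-receptors, had 0 to 2 counts per library, 7 in total, and Dkk4 had 0 or 1, 3 in total.

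The comparison of MMP9 with vehicle asks which of these transcripts differ 4 hours after the injection. None of the 40 tested genes passed edgeR's quasi-likelihood test at a Benjamini-Hochberg adjusted p of 0.05, taken over all 15250 tested genes, of which 0% passed. The lowest adjusted p among the 40 was 0.981. DESeq2 and limma-voom also called 0 of the 40. Before adjustment, 2 genes had a p under 0.05 in edgeR, Rspo3 and Wnt5b, both higher in MMP9, beside 3.19% of all tested genes (2.07% higher and 1.12% lower), and 3 each in DESeq2 and limma-voom. The groups overlapped for all 40 genes, where 0.564% of all tested genes had groups that did not overlap. Log2 fold changes, MMP9 over vehicle, were positive for 15 and negative for 25 of the 40, with a median of -0.06, beside 53.7% positive and a median of 0.01 over all tested genes. The median was -0.02 without MMP9 mouse 4, -0.004 without vehicle mouse 2, -0.02 without vehicle mouse 3 and -0.10 without vehicle mouse 5. It was also -0.10 on log2(TPM + 1) and on log2(TPM + 0.1). Of the 40 genes, 23 kept their sign under all 23 alternative analyses.

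The intervals show what these libraries could resolve. The 95% interval of the log2 fold change stayed between -1 and 1 for 37 of the 40 genes, beside 90.2% of all tested genes, and the exceptions were Rspo3, Wnt2 and Sfrp4. For 27 of the 40 it stayed within a change of 1.5-fold in either direction, beside 67.4% of all tested genes. The intervals of the other 13 reached past it.

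**Figure D2:**
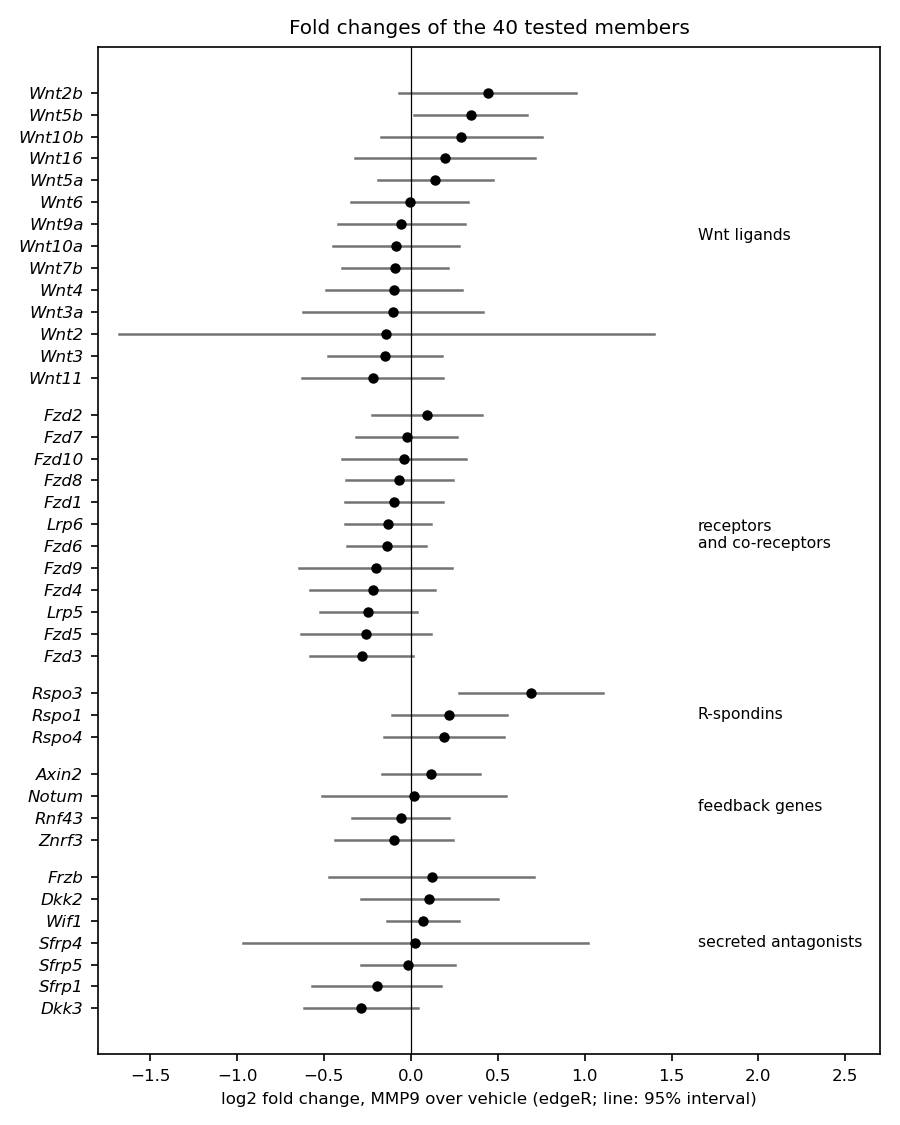
Log2 fold change of each tested gene, MMP9 over vehicle (point), with its 95% interval (line), grouped by role. Only the intervals of Rspo3 and Wnt5b exclude 0 before adjustment for multiple testing, and the widest intervals belong to Wnt2 and Sfrp4.

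Rspo3 had the largest fold change of the 40 genes. It encodes an R-spondin known from dermal cells and vessels. In vehicle mice 1 to 5 it stood at 4.71, 3.17, 3.18, 3.19 and 2.40 CPM, scaled by edgeR's TMM factors. In MMP9 mice 1 to 5 it stood at 6.42, 5.16, 4.40, 5.96 and 4.97 CPM. In CPM, 4 of 5 MMP9 mice were thus above every vehicle mouse, and MMP9 mouse 3 fell below vehicle mouse 1. The groups therefore overlapped. In TPM it was MMP9 mouse 4, at 2.78, that lay within the vehicle range of 1.74 to 3.26. There, MMP9 mouse 3 stood at 3.28. The log2 fold change was 0.69 (standard error 0.19, 95% interval 0.27 to 1.11). Its unadjusted p of 0.00376 ranked 21 among the 15250 genes, and the edgeR adjusted p was 0.981. The value was 0.65 without MMP9 mouse 4.

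T cell marker sums were higher in the MMP9 libraries, a difference that was not tested. Among the marker lists, the T cell list alone had sums that did not overlap between groups, and it is given with its values in view. The 5 tested of 6 listed markers summed to 46.7 to 52.0 CPM in vehicle mice and 57.5 to 80.8 CPM in MMP9 mice, and 0 of the 5 was called. The highest sum was that of MMP9 mouse 4, and the other MMP9 mice lay at 57.5 to 62.8 CPM. Endothelial markers summed to 517 to 623 and 420 to 602 CPM, and fibroblast markers to 6533 to 12285 and 7710 to 15520 CPM, each overlapping between groups. The part of these cells in the Rspo3 result was not tested. In whole tissue, fewer cells of a type and less RNA per cell cannot be told apart.

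The other R-spondins had smaller positive values. Rspo1 stood at 16.2, 18.3, 13.0, 17.1 and 16.6 CPM in vehicle mice 1 to 5 and at 15.0, 20.1, 17.9, 25.4 and 16.3 CPM in MMP9 mice 1 to 5. Its log2 fold change of 0.22 (standard error 0.15, edgeR adjusted p = 0.981) went to 0.09 without MMP9 mouse 4, the highest library. Rspo4 stood at 4.31, 5.84, 5.54, 6.33 and 7.51 CPM in vehicle mice and at 7.77, 6.72, 7.14, 5.89 and 6.18 CPM in MMP9 mice, a log2 fold change of 0.19 that was 0.10 without vehicle mouse 1 and 0.29 without vehicle mouse 5. Its highest vehicle mouse, at 7.51 CPM, lay above 4 of the 5 MMP9 mice. The 3 tested R-spondins were therefore all positive, with a median of 0.22, and none passed.

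Wnt5b, a ligand mostly studied for signalling outside the beta-catenin branch, was the second gene at an unadjusted p under 0.05. It stood at 4.65, 3.44, 3.73, 4.13 and 4.51 CPM in vehicle mice 1 to 5 and at 5.03, 4.35, 4.75, 6.24 and 5.68 CPM in MMP9 mice 1 to 5. In CPM, MMP9 mouse 2 lay within the vehicle range and the other 4 above it. In TPM it was MMP9 mouse 4, at 3.23, that lay within the vehicle range of 2.71 to 3.45, and MMP9 mouse 2 stood at 3.49. The log2 fold change was 0.35 (standard error 0.15, 95% interval 0.02 to 0.67, unadjusted p = 0.0396, edgeR adjusted p = 0.981). The unadjusted p stayed under 0.05 in 14 of 23 alternatives. It rose to 0.0537 to 0.0878 when vehicle mouse 2, 3 or 4 or MMP9 mouse 1, 4 or 5 was left out. Without MMP9 mouse 4, its highest library, the log2 fold change was 0.27. The p was 0.108 without both hair-poor mice, 0.0800 on log2(TPM + 1) and 0.0973 on log2(TPM + 0.1).

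Wnt2b had the largest log2 fold change of the ligands at 0.44 (standard error 0.23, edgeR adjusted p = 0.981). Its levels in vehicle mice 1 to 5 were 3.57, 2.18, 2.36, 2.81 and 4.96 CPM. In MMP9 mice 1 to 5 they were 4.97, 3.79, 4.95, 3.60 and 4.26 CPM, so the highest vehicle mouse reached the top of the MMP9 range. Without that mouse, vehicle mouse 5, the value was 0.66.

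The abundant ligands showed no shift beyond the mice's spread. Wnt4 stood at 60.8, 92.2, 80.5, 46.2 and 51.1 CPM in vehicle mice 1 to 5 and at 64.9, 60.7, 66.3, 64.0 and 53.2 CPM in MMP9 mice 1 to 5. The MMP9 mice all lay inside the vehicle range, and the log2 fold change was -0.10 (95% interval -0.49 to 0.29), turning to 0.05 without vehicle mouse 2. Without both hair-poor mice it was 0.03. Wnt10a, a ligand in which mutations affect hair, teeth and sweat glands, stood at 26.4, 41.1, 35.0, 22.2 and 24.8 CPM in vehicle mice and at 30.2, 31.1, 28.9, 27.8 and 23.1 CPM in MMP9 mice. It too lay inside the vehicle range in every MMP9 mouse, with a log2 fold change of -0.08 that turned to 0.06 without vehicle mouse 2. Over the 14 tested ligands, 5 log2 fold changes were positive and 9 negative, with a median of -0.07. This direction rested on single mice. Without vehicle mouse 2, 9 were positive with a median of 0.05, and without vehicle mouse 4, 8 were positive with a median of 0.008. The median was 0.01 without MMP9 mouse 3 and 0.0001 without MMP9 mouse 1, with 7 positive in each. Without both hair-poor mice 8 were positive, with a median of 0.03. The 9 tested ligands not given mouse by mouse, besides Wnt2, lay between -0.22 for Wnt11 and 0.29 for Wnt10b, whose vehicle mean was 4.01 ± 0.498 CPM and MMP9 mean 4.89 ± 1.52 CPM.

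Receptor values were mostly slightly negative, at 11 of 12 genes, with a median of -0.13 beside 0.01 over all tested genes, and none passed. The exception was Fzd2, at 0.09. Without MMP9 mouse 4 the median was -0.08 and 8 of 12 were negative, and without vehicle mouse 3 it was -0.07 with 9 of 12 negative. With counts corrected for each library's trend on transcript length the median was -0.10 with 11 of 12 negative.

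Lrp5, the more abundant co-receptor, stood at 106, 137, 112, 106 and 107 CPM in vehicle mice 1 to 5 and at 107, 103, 96.5, 70.4 and 103 CPM in MMP9 mice 1 to 5. In 4 of 5 MMP9 mice it lay below every vehicle mouse, and MMP9 mouse 1 lay within the vehicle range. The log2 fold change was -0.24 (standard error 0.13, 95% interval -0.52 to 0.03, unadjusted p = 0.0786, edgeR adjusted p = 0.981). It was -0.16 without MMP9 mouse 4. In edgeR with counts corrected for each library's trend on transcript length, it was -0.22 (unadjusted p = 0.0358). The unadjusted p was under 0.05 in 3 of 23 alternatives, and the adjusted p was at least 0.887. Fzd3, a Frizzled known from planar polarity, stood at 23.0, 23.2, 25.4, 21.0 and 18.0 CPM in vehicle mice and at 21.3, 21.7, 16.8, 14.4 and 16.6 CPM in MMP9 mice. MMP9 mice 3, 4 and 5 lay below the vehicle range, with a log2 fold change of -0.28 (standard error 0.14, unadjusted p = 0.0600, edgeR adjusted p = 0.981), and -0.22 without MMP9 mouse 4. Fzd1, the most abundant receptor, stood at 102, 82.8, 122, 86.5 and 97.0 CPM and at 102, 102, 95.1, 74.0 and 84.5 CPM, with overlapping groups and a log2 fold change of -0.10 that was -0.03 without MMP9 mouse 4 and -0.006 without vehicle mouse 3. The other 9 receptors lay between -0.26 for Fzd5 and 0.09 for Fzd2. Fzd5 was at -0.10 without vehicle mouse 3, and Lrp6 went from -0.13 to -0.04 without MMP9 mouse 4.

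**Figure D3:**
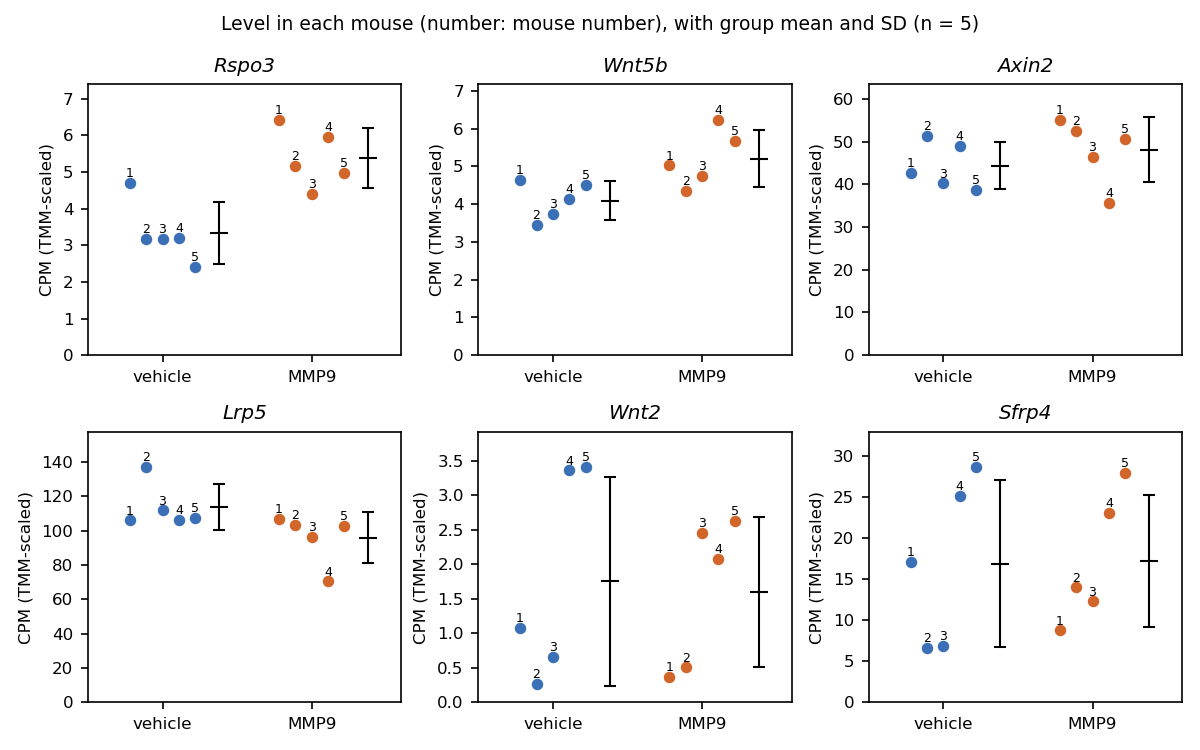
CPM of 6 genes in each mouse (points, with the mouse number) and the group mean with SD (n = 5). For Rspo3 and Wnt5b, 4 of 5 MMP9 mice lie above all vehicle mice, Lrp5 is lowest in MMP9 mouse 4 at 70.4 CPM, and Wnt2 and Sfrp4 range widely within both groups.

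The feedback genes, which report on canonical signalling in many tissues, overlapped between groups. Axin2 stood at 42.7, 51.3, 40.2, 49.1 and 38.7 CPM in vehicle mice 1 to 5 and at 55.1, 52.6, 46.5, 35.7 and 50.6 CPM in MMP9 mice 1 to 5. MMP9 mice 1 and 2 lay above the vehicle range and MMP9 mouse 4 below it. Its log2 fold change was 0.12 (standard error 0.13, 95% interval -0.16 to 0.40, edgeR adjusted p = 0.981), and 0.20 with an unadjusted p of 0.0555 without MMP9 mouse 4. It was 0.06 without MMP9 mouse 1 and 0.07 without vehicle mouse 5.

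Notum stood at 9.76, 8.03, 16.3, 8.92 and 7.67 CPM in vehicle mice and at 10.3, 14.1, 10.8, 6.72 and 9.35 CPM in MMP9 mice, highest in vehicle mouse 3, which also had the highest sum of hair matrix markers, at 285 CPM. Its log2 fold change was 0.02, and ran from -0.12 without MMP9 mouse 2 to 0.26 without vehicle mouse 3. Znrf3 stood at 13.9, 14.4, 15.3, 12.9 and 12.6 CPM and at 16.2, 12.2, 15.4, 8.94 and 11.8 CPM, with a log2 fold change of -0.10 that was 0.003 without MMP9 mouse 4. Rnf43 averaged 18.2 ± 2.26 and 17.5 ± 2.72 CPM in the respective groups (SD, n = 5).

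Of the antagonists, Dkk3 had the smallest p. It stood at 71.7, 73.2, 78.0, 54.9 and 59.9 CPM in vehicle mice 1 to 5 and at 70.0, 65.5, 47.6, 47.1 and 46.7 CPM in MMP9 mice 1 to 5. MMP9 mice 3, 4 and 5 lay below the vehicle range and the others inside it, with a log2 fold change of -0.29 (standard error 0.15, 95% interval -0.61 to 0.04, edgeR adjusted p = 0.981), and -0.24 without MMP9 mouse 4. Sfrp1 stood at 68.3, 42.6, 77.0, 48.7 and 48.2 CPM and at 50.0, 48.8, 60.1, 40.7 and 48.7 CPM, a log2 fold change of -0.20 that went to -0.06 without vehicle mouse 3, its highest library. Wif1 was the steadiest of all 40 genes, between 13.9 and 18.1 CPM over the 10 mice, and its 95% interval ran from -0.14 to 0.28. Sfrp5 had 16.5 ± 2.66 and 16.3 ± 1.22 CPM, Dkk2 43.8 ± 8.85 and 47.2 ± 9.91 CPM, and Frzb 4.38 ± 1.17 and 4.76 ± 1.68 CPM.

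MMP9 mouse 4 held the lowest value for 18 of the 40 genes, beside 25% of all tested genes. All 9 of the genes in the longest quartile of transcripts were lowest there, as were 57.3% of all tested genes of that quartile. In the third quartile it was 8 of 16 genes, beside 29.7%, and in the second 1 of 13, beside 10.8%. The median of the 40 genes in that library was -0.29 relative to the vehicle mean, against -0.06 to 0.06 in the other MMP9 mice. Its highest values were held by Rspo1, Dkk2 and Wnt5b.

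**Figure D4:**
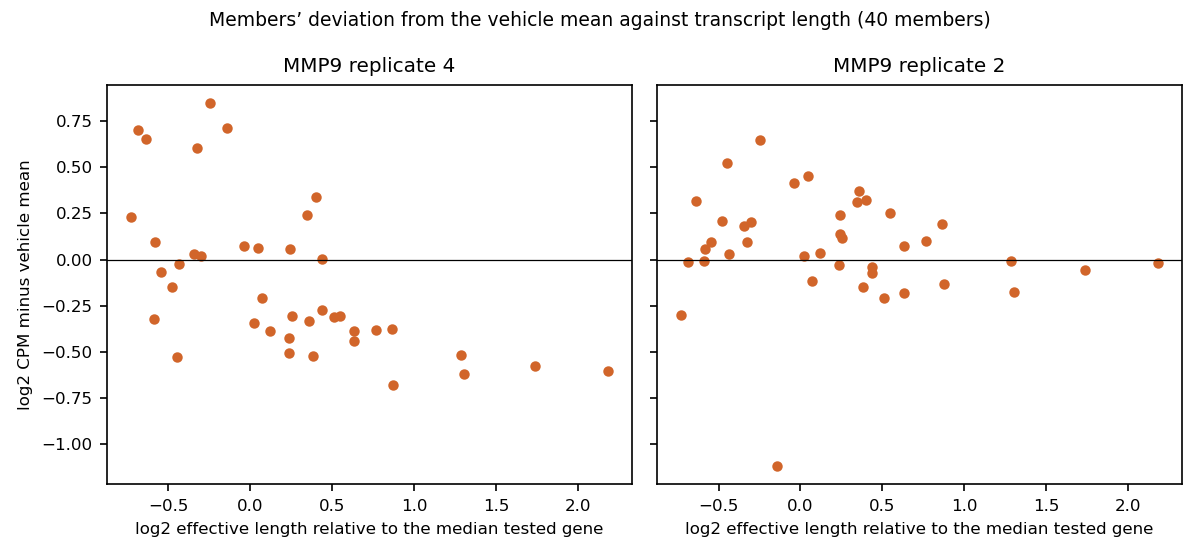
Difference of each tested gene from its vehicle mean (log2 CPM) against its transcript length relative to the median tested gene (log2), in MMP9 mice 4 and 2, with 1 point per gene. In MMP9 mouse 4 the genes of the longest quartile all lie below 0, while in MMP9 mouse 2 the 9 genes of that quartile have a median of -0.02.

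Across mice, the widest variation among the genes was within the groups. Wnt2, a ligand of mesenchymal cells, stood at 1.08, 0.273, 0.658, 3.36 and 3.41 CPM in vehicle mice 1 to 5 and at 0.363, 0.505, 2.45, 2.08 and 2.62 CPM in MMP9 mice 1 to 5, a 12.5-fold range. Sfrp4, a Wnt-binding antagonist, stood at 17.1, 6.61, 6.86, 25.2 and 28.7 CPM and at 8.76, 14.0, 12.3, 23.1 and 27.9 CPM, a 4.34-fold range. Both were high in vehicle mice 4 and 5 and low in vehicle mice 2 and 3, and neither group lay above the other.

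These 2 genes were picked for their spread after the values were seen. Over the 10 mice their log2 CPM gave Pearson's r = 0.85 (permutation p = 0.00378) and Spearman's rho = 0.87 (permutation p = 0.00205), both two-sided with 100000 resamples, and r = 0.73 without the 2 mice farthest from the Wnt2 median. At the mean of 1.08 TPM, Wnt2 had 5 to 68 counts per library, so its low values carry a large counting error.

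Vehicle mouse 2, nearly devoid of hair shaft transcripts, held the lowest value of 6 genes (Wnt2, Wnt2b, Wnt5b, Wnt11, Sfrp4 and Frzb) and the highest of 6 others (Wnt4, Wnt10a, Wnt7b, Wnt3, Wnt6 and Lrp5). It had the highest sum of keratinocyte markers, at 17580 CPM, against 10367 to 16949 CPM in the other mice. MMP9 mouse 1, also poor in hair shaft transcripts, held the highest value of 9 genes and the lowest of none. Vehicle mouse 3, the richest in hair shaft transcripts, also held the highest value of 9 genes. The shares of all tested genes with their highest or lowest value in these mice were not computed. The part of tissue composition in these values was not tested beyond the relations that follow.

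The 40 genes were related to the summed CPM of 10 marker lists over the 10 mice, 400 relations in all, on the log2 scale. None passed Benjamini-Hochberg adjustment of the permutation p, and the 3 strongest are given as not having passed. Wnt11, a ligand mostly acting outside the beta-catenin branch, followed the hair matrix markers, with r = 0.89 (permutation p = 0.00045, adjusted p = 0.0600), rho = 0.79 (permutation p = 0.00874, adjusted p = 0.271) and r = 0.83 without the 2 mice with the most extreme marker sums. Its lowest and highest values were 9.77 CPM in vehicle mouse 2 and 18.7 CPM in vehicle mouse 3.

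Fzd4, a receptor known from vessels, ran opposite to the keratinocyte markers, with r = -0.91 (permutation p = 0.00029, adjusted p = 0.0580), rho = -0.85 (permutation p = 0.00272, adjusted p = 0.252) and r = -0.91 without the 2 most extreme mice. Fzd7 ran opposite to the adipocyte markers, with r = -0.91 (permutation p = 0.0002, adjusted p = 0.0580), rho = -0.89 (permutation p = 0.00118, adjusted p = 0.252) and r = -0.88 without the 2 most extreme mice. Without MMP9 mouse 4 these values of r were 0.89, -0.88 and -0.87. For Rspo3 and the T cell markers r was 0.81 (permutation p = 0.00395, adjusted p = 0.151) and rho 0.85 (permutation p = 0.00289, adjusted p = 0.252), a relation that shares the difference between the groups. Marker sums and genes come from the same libraries and share their scaling. The hair shaft list was left out of these relations because 2 mice lay far from the other 8.

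**Figure D5:**
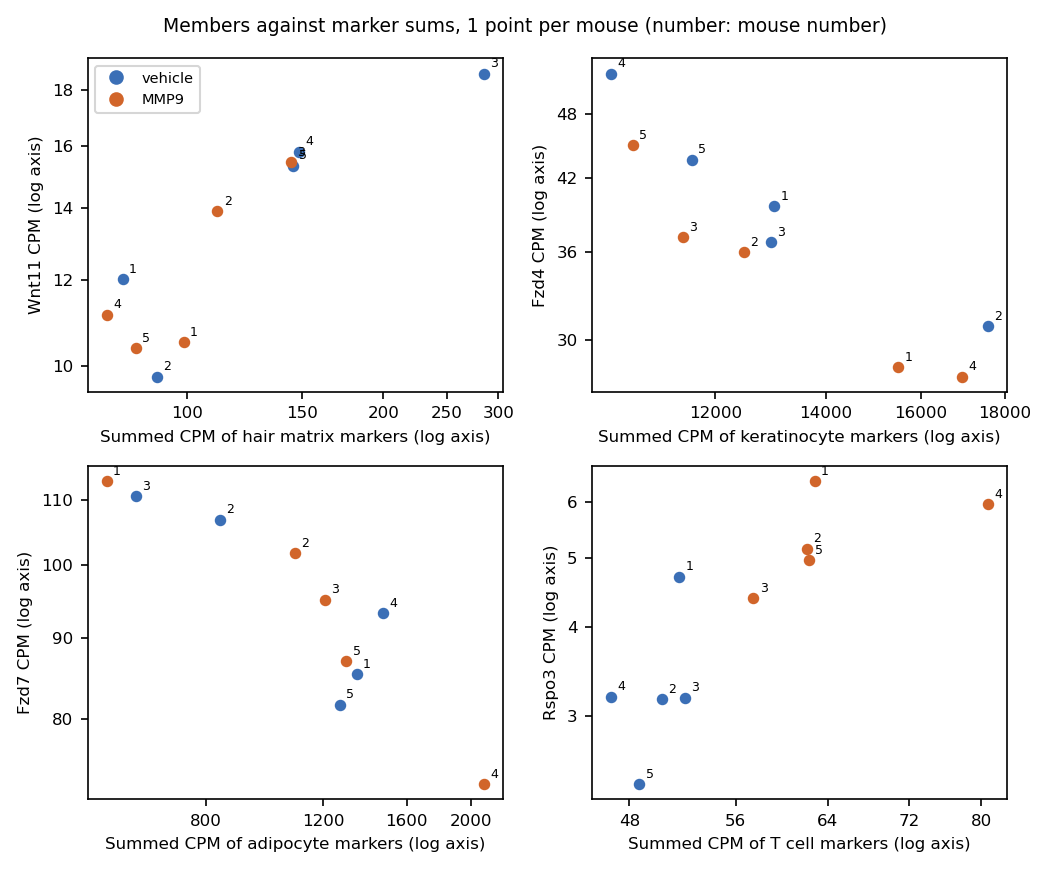
CPM of 4 genes against the summed CPM of a marker list (log axes), with 1 point per mouse, blue for vehicle and orange for MMP9, numbered by mouse. The points slope upward for Wnt11 and Rspo3 and downward for Fzd4 and Fzd7, and none of these relations passed adjustment (adjusted p of 0.0580 to 0.151 for r).

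No change was detected in the rest of the pathway either. Of 40 further genes, from ligand export through the destruction complex to nuclear factors and targets, 0 passed in edgeR in either direction. In that fit 0 had an unadjusted p under 0.05, beside 3.19% of all tested genes. Some alternatives gave 1 or 2, such as Wls with upper-quartile factors and Kremen2 and Sostdc1 without vehicle mouse 2. Log2 fold changes of the 40 were positive for 11 and negative for 29, with a median of -0.08. Over all tested genes 53.7% were positive, with a median of 0.01. Without MMP9 mouse 4, 16 of the 40 were positive and 24 negative, with a median of -0.02. Wls, the carrier that brings Wnt proteins to the cell surface, had the smallest p, averaging 101 ± 8.24 CPM in vehicle mice and 116 ± 12.4 CPM in MMP9 mice (SD, n = 5). The log2 fold change was 0.21 (standard error 0.10, edgeR adjusted p = 0.981). The target gene Sp5 had 1.07 ± 0.594 and 1.79 ± 0.838 CPM, and Pygo2, a partner of beta-catenin in the nucleus, 52.0 ± 3.59 and 47.5 ± 3.57 CPM.

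Lef1, the nuclear factor of hair matrix cells, stood at 3.18, 4.10, 14.8, 7.38 and 7.61 CPM in vehicle mice 1 to 5 and at 5.86, 4.60, 6.99, 2.29 and 2.30 CPM in MMP9 mice 1 to 5. It was highest in vehicle mouse 3, and its log2 fold change was -0.74 (standard error 0.44, edgeR adjusted p = 0.981). The hair matrix markers, of which Lef1 is one, summed to 79.7 to 285 CPM in vehicle mice and 75.3 to 144 CPM in MMP9 mice, and their part in the Lef1 value was not tested. Lgr5, an R-spondin receptor of follicle stem cells, had 27.0 ± 6.42 and 23.1 ± 6.73 CPM. Ctnnb1, which encodes beta-catenin, had 414 ± 32.2 and 405 ± 19.3 CPM, a log2 fold change of -0.03 with a 95% interval from -0.23 to 0.17.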

How the data were processed

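Libraries of oligo(dT)-selected mRNA were read as single 50-base reads on a DNBSeq instrument, per the labels' protocols. The submitters' processing notes name HISAT and the build GRCm39. The sources used here do not give the quantification program, annotation or strand setting, so near-identical copies and antisense genes may share reads. The file deposited by the authors holds an estimated count per gene and library (60.8% of values not whole), with TPM (scaled by length and library) and FPKM, all named in its header. The deposited FPKM and the authors' group means were not used. Rounded counts went into edgeR 4.0.16 under R 4.3.3 (TMM factors, filterByExpr by group, quasi-likelihood F test, treatment as the only term, Benjamini-Hochberg over 15250 tested genes, threshold 0.05). The filter kept genes with enough counts in total and in at least 5 of the 10 libraries, whichever group these came from. Standard errors derive from the F statistic.

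The genes, roles, lists and alternatives were chosen with earlier results of these data known. Genes given mouse by mouse are, per role, the 2 most abundant and the 2 with the smallest p, plus Axin2. Of the further pathway genes, the 4 with the smallest p, Lef1, Lgr5 and Ctnnb1 are named, and Lef1 was given mouse by mouse with its values in view. Wnt2, Sfrp4, Wnt11, Fzd4, Fzd7 and the marker relations were picked with their values in view. The fit was tested on simulated data. P-values of the fits set the group difference against the spread between these mice, moderated over the tested genes. Permutation p-values come from reordering the libraries. Alternatives were other scaling factors and filters, DESeq2 1.42.0, limma 3.58.1 (voom, and log2(TPM + 1) or log2(TPM + 0.1)), a replicate block, hair terms, length offsets and leaving out each mouse. All per-library columns mapped to a labelled sample.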

Additional observations from a re-analysis of the deposited data

Results flagged for a closer look

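In each group of 5 mice, the CPM of the 40 tested genes was searched for a mouse far from the others, by a gap to its nearest neighbour above 0.71 of the group's range. Of 80 groups 5 met this, where chance gives about 1 in 20. In the vehicle group, Notum was 16.3 CPM in vehicle mouse 3 and Lrp5 was 137 CPM in vehicle mouse 2. In the MMP9 group, Lrp5 was 70.4 CPM and Lrp6 52.5 CPM in MMP9 mouse 4, and Dkk2 was 30.2 CPM in MMP9 mouse 3.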

How the results depend on the processing

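None of the 40 genes was called under any of the 23 alternatives, and DESeq2 called 1 gene of the whole table, which is not among them. Rspo3 kept an unadjusted p under 0.05 in all 23, with log2 fold changes from 0.48 to 0.85 and adjusted p from 0.539 to 0.999. The count of the 40 genes at an unadjusted p under 0.05, 2 in edgeR, was 1 with limma on log2(TPM + 1) (beside 1.58% of all tested genes) and 1 on log2(TPM + 0.1) (1.51%), 4 with the replicate block (3.63%), 5 with length offsets and the block (4.29%), and 1 to 4 when single mice were left out: 1 without vehicle mouse 2, vehicle mouse 3 or MMP9 mouse 5, and 4 without vehicle mouse 5 or MMP9 mouse 2 (2.30% to 4.42% of all tested genes over the single mice). The block added Dkk3 and Fzd3. Over all 23 alternatives, Dkk3 had an unadjusted p under 0.05 in 6 and Fzd3 in 5. For Lrp5 and Wnt2b it was 3 each, and for Wnt10b 1. Mouse numbers were not treated as pairs in the main fit. Of 5 same-numbered pairs, 3 correlated above 0.1 (-0.24 to 0.46), which cannot show whether the numbers pair the samples. The block changed no adjusted call. Signs turned under at least 1 alternative for 17 of the 40 genes. Among those named by rule they turned for Notum (-0.0048 on log2(TPM + 0.1), -0.058 without both hair-poor mice, -0.0054 with length offsets, -0.12 to 0.26 leaving out single mice), Wnt4 (0.032 without both hair-poor mice, -0.22 to 0.051), Wnt10a (0.031, -0.19 to 0.057) and Znrf3 (-0.19 to 0.0030); the cause was not tested. The length offsets, alone or with the block, were chosen after seeing the data. The filter on low counts left 8 genes untested.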
